A study of Homo sapiens with 6 samples.

Results

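The distal positions, from 50 to 120 kb downstream of position 0, made up 70001 of the 122001 positions (57.4%) in each of 6 averaged gene profiles. They were chosen by distance alone, and each is 1 base averaged over genes. A position therefore has no single chromosome coordinate, gene or sequence, and none is given. Position 0 is not defined in the files and is taken here as the start of genes.

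The profiles come from GRO-seq, a nuclear run-on assay in which engaged RNA polymerases extend their transcripts with a labelled nucleotide, so that the sequenced RNA marks where transcription was under way. All cells were MRC5VA, an SV40-immortalised human lung fibroblast line, and all were held in DRB (100 µM for 3.5 hours). DRB blocks the kinase that lets paused RNA polymerase II enter productive elongation, and its removal releases polymerases from the starts of genes as a wave. Just before DRB was washed out, cells were either given UVC (15 J/m2) or left unirradiated, and nuclei were taken 10, 25 or 40 min later. UVC creates pyrimidine dimers and other photoproducts, and such a lesion in the transcribed strand can stall an elongating polymerase.

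Each of the 6 groups was 1 library: untreated at 10, 25 and 40 min, and irradiated at 10, 25 and 40 min. There is no replicate, so no p-value is given and the variation between cultures is unknown. The spread given with a window mean is the SD over its 10 bins of 1 kb, which measures roughness along a profile only. A profile holds no values per gene, so the cell type was not checked against marker genes. Signal is in the deposited units, whose scaling is not given in the sources used here. In an average over genes, fewer engaged polymerases per gene and fewer transcribing genes cannot be told apart.

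Only long genes can hold the distal positions within them. In the GENCODE annotation of GRCh37, 6794 of 20163 protein-coding genes (33.7%) were at least 50 kb long, 4549 (22.6%) at least 80 kb and 2967 (14.7%) at least 120 kb. Which genes the authors averaged is not given in the sources used here, so the share of distal signal that lies within the averaged genes was not tested. Of all profile signal, the distal positions carried 45.4%, 39.3% and 39.6% in the untreated libraries (10, 25 and 40 min, the order used throughout). They carried 47.7%, 48.6% and 46.7% in the irradiated libraries. In each library this share was below the 57.4% of positions that they occupy.

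In the units as deposited, the untreated 40 min library stood apart from the other 5 between 50 and 80 kb. Its mean signal was 2.06 ± 0.139 in the 50–60 kb window, 1.67 ± 0.0932 in the next and 1.41 ± 0.0557 in the 70–80 kb window (SD over 1 kb bins, 1 library). Over 50–60 kb the other 5 libraries lay between 1.13 and 1.20. Over 70–80 kb they lay between 1.17 and 1.248. Beyond 80 kb the untreated 40 min signal was level, at 1.34, 1.33, 1.35 and 1.35 in the 4 remaining windows. It was still the highest of the 6 libraries in each of these windows.

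**Figure D1:**
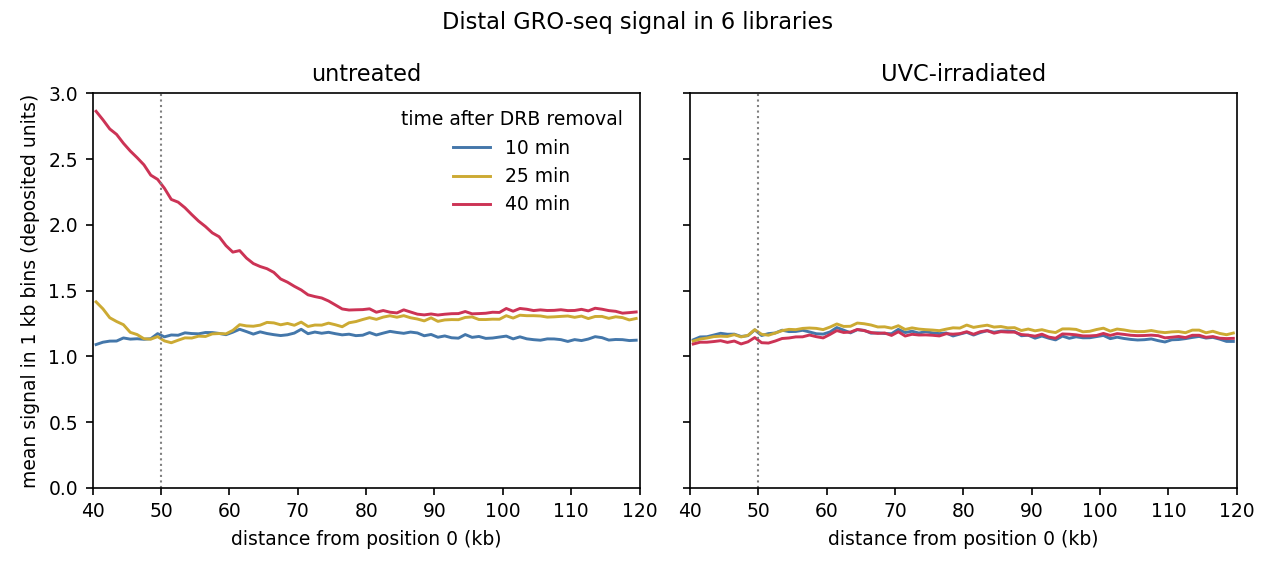
Mean signal in 1 kb bins (deposited units, vertical axis) against distance from position 0 (kb) for untreated (left) and irradiated (right) libraries, 1 line per library; the dotted line marks 50 kb, where the distal positions begin. The untreated 40 min line comes down from 2.28 at 50 to 51 kb to its plateau near 80 kb, while the irradiated lines lie almost on one another.

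That descent is read here as the leading edge of the untreated wave. The edge crossed the 50 kb limit without a step: the 1 kb bin just before it held 2.35 and the bin just after it 2.28. The level at 50 to 51 kb was 69.2% above the floor, taken as the library's own mean over 110–120 kb (1.35). The 2 kb running mean had come down to 50% of that height at 60.2 kb, and to 10% at 73.7 kb, a further 13.5 kb downstream. The first and last 1 kb bins of a window differed by 0.436, 0.260 and 0.150 in the 3 windows of the edge. The edge thus flattened with distance and had no sharp end.

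Relative to the same floor, the untreated 40 min signal stood at 153%, 124% and 105% in these windows. It stood at 99.2% over 80–90 kb and at 98.6% over 90–100 kb. The lowest 1 kb bin of its distal profile lay at 90 to 91 kb (1.315), beyond the edge, and the bin that starts at 88 kb was nearly as low (1.316). The level over 100–110 kb was back at 100.5%. The stretch over 50–80 kb held 11.4% of the signal above the floor between 2 and 110 kb. The window over 50–60 kb alone held 7.34%. Most of the untreated wave at 40 min therefore lay nearer to position 0 than the distal positions do.

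The edge was also read after division by profiles that had none. With the untreated 40 min profile divided by the irradiated 40 min profile, the half-height lay at 59.4 kb and the 10% height at 71.8 kb. Divided by the untreated 10 min profile, they lay at 59.4 and 70.1 kb. The foot of the edge thus moved by more than its middle did.

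At 25 min the untreated profile had the opposite shape. Its signal at 50 to 51 kb (1.12) differed by -13.7% from its own floor (1.30), and its lowest 1 kb bin of the distal range, 1.10, lay at 51 to 52 kb. Between 40 and 50 kb the same library came down from 1.41 to 1.13, and reached its low point at the start of the distal range. From there the signal climbed with distance, from 88.4% of the floor in the first distal window through 95.6% and 96.4% to 99.9% in the 80–90 kb window. It stayed between 99.0% and 100.8% in the next pair of windows. The rise had 50% of its height left at 60.6 kb and 10% of it left at 79.4 kb. Much of it came in 2 short stretches. Its 1 kb bins went from 1.17 at 59 kb to 1.24 at 61 kb, and from 1.23 at 76 kb to 1.295 at 80 kb. The other libraries climbed there too, apart from the untreated 40 min one. That library came down from 1.84 to 1.80 across the first stretch and stood at 1.36 at both ends of the second. The irradiated 10 min library went from 1.17 to 1.22 across the first and from 1.173 to 1.183 across the second. Across the first stretch the untreated 10 min library went from 1.165 to 1.21, the irradiated 25 min library from 1.204 to 1.247 and the irradiated 40 min library from 1.14 to 1.196. Across the second they went from 1.16 to 1.18, from 1.196 to 1.238 and from 1.156 to 1.19.

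**Figure D2:**
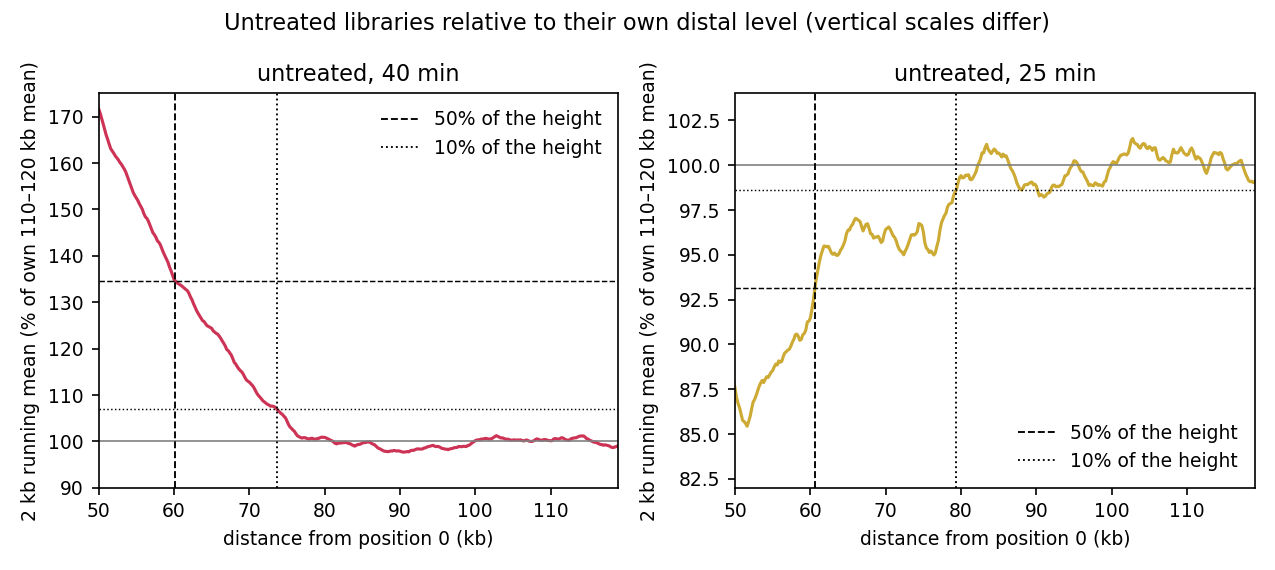
The untreated 40 min (left) and 25 min (right) profiles as a 2 kb running mean in percent of their own mean over 110–120 kb (vertical axes, which differ in scale), against distance from position 0 (kb). Dashed and dotted lines mark where 50% and 10% of the height at 50 to 51 kb were left: 60.2 and 73.7 kb at 40 min, and 60.6 and 79.4 kb at 25 min, where the profile approaches its floor from below.

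The other 4 libraries had no such edge. At 50 to 51 kb their signal differed from their own floor by 1.68% (untreated, 10 min), 2.30% (irradiated, 10 min), -1.37% (irradiated, 25 min) and -3.73% (irradiated, 40 min). Over the whole distal range the highest 1 kb bin exceeded the lowest by a factor of 1.08 to 1.10 in these libraries. The factor was 1.19 in the untreated 25 min library and 1.73 in the untreated 40 min library.

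At 10 min irradiated and untreated cells had nearly equal signal at distal positions. In the 50–60 kb window irradiated cells had a signal of 1.18 ± 0.0132 and untreated cells one of 1.17 ± 0.0105; in the 110–120 kb window both had 1.13. The ratio of irradiated to untreated signal lay between 0.997 and 1.01 in all 7 windows, and between 0.988 and 1.02 in the 70 bins of 1 kb. A fold limit was set at more than 20% lower or more than 25% higher, which is the same factor in both directions. None of the 70 bins passed it (0 lower and 0 higher). Of the 1 kb bins of the whole profile, 9.02% were lower past that limit at 10 min and 0% higher.

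At 25 min the comparison changed sign along the distal range, in the units as deposited. Over 50–60 kb the irradiated signal (1.20 ± 0.0198) was 1.04 times the untreated signal (1.14 ± 0.0243), and higher in 10 of 10 bins. Over 60–70 kb the ratio was 0.996 and within the roughness of the bins. From 70 kb on the irradiated signal was lower in every 1 kb bin, with ratios of 0.969, 0.945, 0.934, 0.916 and 0.914 in successive windows. The highest ratio of a single bin was 1.06, at 54 to 55 kb, and the lowest 0.903, at 109 to 110 kb. None of the 70 bins passed the fold limit (0 in either direction), against 28.7% lower and 3.28% higher among the bins of the whole profile.

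At 40 min the irradiated signal was lower than the untreated signal in all 70 bins. The 50–60 kb window had a ratio of 0.552 (log2 ratio -0.86 ± 0.12, SD over 1 kb bins). The ratio then climbed through 0.707 and 0.827 to 0.883 in the 80–90 kb window, and was 0.873, 0.858 and 0.851 in the last 3 windows. The lowest single bin, 0.484, was the first one, at 50 to 51 kb. Of the 70 bins, 22 (31.4%) were more than 20% lower, and these formed an unbroken stretch that ended at 72 kb. Over the whole profile 52.5% of bins were lower past the limit and 4.1% higher, so the distal share of lower bins was below that of the profile. With each profile divided by its own mean over 110–120 kb, the count was 13, and with division by the mean over all positions it was 3 lower and 45 higher. No share over the whole profile is given for these rescaled counts, so they are not read as a trait of the distal positions.

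**Figure D3:**
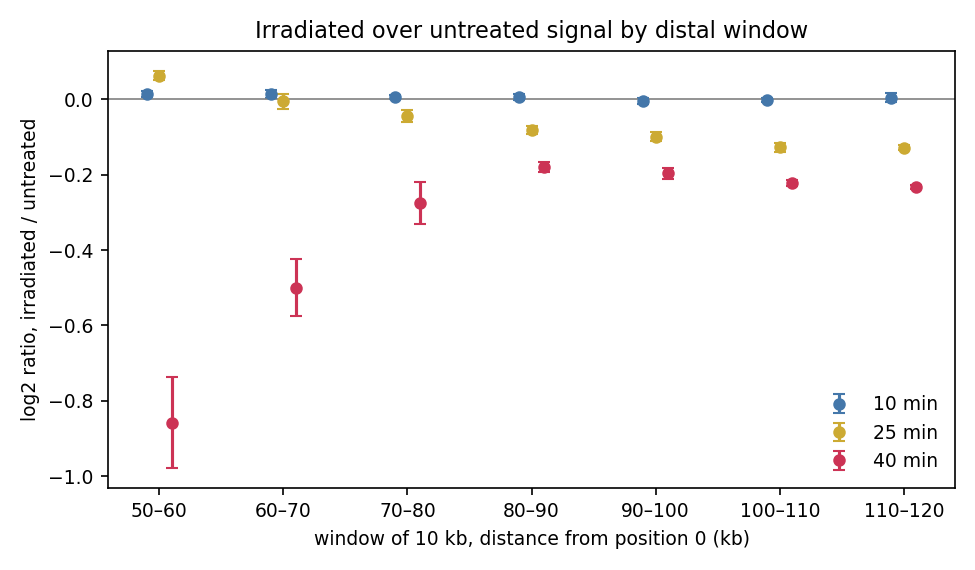
Log2 ratio of irradiated to untreated signal (vertical axis) in the 7 distal windows of 10 kb (horizontal axis) at 10, 25 and 40 min, 1 library per group; error bars are the SD over the 10 bins of 1 kb in a window. The 10 min points lie within 0.014 of 0, the 25 min points slope from 0.063 to -0.13, and the 40 min points come up from -0.86 to -0.18 and then decline to -0.23.

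How far these ratios tell of distal transcription depends on the scaling between libraries. Division of each profile by its mean over all positions adds 0.064, 0.37 and 0.61 to every log2 ratio between irradiated and untreated signal (10, 25 and 40 min). Under it the irradiated signal was the higher one in all 7 windows at 25 min and from 60 kb on at 40 min. With the 110–120 kb mean set equal instead, all 6 windows up to 110 kb were positive at 25 min, with log2 ratios of 0.19, 0.12, 0.084, 0.047, 0.030 and 0.0017. At 40 min the windows between 80 and 110 kb were positive, at 0.053, 0.035 and 0.011. The sign of the difference ahead of the wave is therefore set by the scaling chosen. Over 50–60 kb at 40 min the log2 ratio stayed below 0 under each scaling tried, at -0.86 as deposited, -0.63 with the 110–120 kb mean set equal and -0.25 with the profile mean set equal. The shape of a profile is not touched by scaling. Relative to 110 to 120 kb, the 50–60 kb window stood at 103.6%, 88.4% and 153% in the untreated libraries. In the irradiated ones it stood at 104.3%, 101.0% and 99.0%.

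The level far ahead of the wave was read over 80–120 kb, over 40 bins of 1 kb. The untreated libraries had levels of 1.146 ± 0.0209, 1.294 ± 0.0123 and 1.341 ± 0.0146 in time order. The irradiated libraries had 1.147 ± 0.0232, 1.200 ± 0.0175 and 1.162 ± 0.0155. In the units as deposited, the untreated level was thus higher at each later time, whereas the irradiated level was highest at 25 min. At 10 min both treatments had the same level to within the roughness of the bins. At 25 min the bins of the untreated library ran from 1.27 to 1.31 and those of the irradiated library from 1.16 to 1.24. At 40 min they ran from 1.31 to 1.37 and from 1.14 to 1.20. The bins of 1 library are not replicates of a treatment, and the distance between these ranges depends on the scaling between libraries.

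Window by window, the untreated 40 min signal was 1.76, 1.42 and 1.20 times the 10 min signal over 50–80 kb, and 1.14 to 1.20 times over 80–120 kb. The untreated 25 min signal was 0.978 times the 10 min signal in the first window, 1.05 times in the second and 1.15 times in the last. Both ratios use the same 10 min library. In irradiated cells the 25 min signal was 1.01 to 1.06 times the 10 min signal. The 40 min signal was 0.961 times the 10 min signal over 50–60 kb and between 0.989 and 1.03 times it in the other windows. The untreated increase beyond 80 kb reversed when profiles were divided by their mean over all positions, which lowers the log2 ratio by 0.33 at 25 min and by 0.57 at 40 min. The number of sequenced reads is unknown, and its part in these levels was not tested. Counted in steps (a library's smallest increment), the mean distal value was 19149, 22506 and 40145 for the untreated libraries and 23621, 23984 and 24158 for the irradiated ones.

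The distal level also drifted with distance, and the direction separated the untreated 25 and 40 min libraries from the other 4. Over 80–120 kb the slope at 10 min was -1.32% ± 0.134 of the mean level per 10 kb in untreated and -1.33% ± 0.18 in irradiated cells (SE over 1 kb bins, which are not independent). The later irradiated libraries had slopes of -0.995% ± 0.122 (25 min) and -0.853% ± 0.123 (40 min). The later untreated libraries had slopes of 0.179% ± 0.128 and 0.338% ± 0.14. These positive slopes are small, and over 70 to 120 kb, which takes in the foot of the edge, the untreated 40 min slope was -0.923%.

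The downward drift was not even. In the untreated 10 min library the window means were 1.17, 1.18, 1.17 and 1.18 up to 90 kb, then 1.15, 1.13 and 1.13. The irradiated 10 min library took the same course, with 1.18, 1.19, 1.18 and 1.18 followed by 1.14, 1.13 and 1.13. In both, the level was flat to 90 kb and stepped down between 80 to 90 and 90 to 100 kb. At 25 and 40 min the irradiated windows over 80–90 kb (1.22 and 1.18) were likewise above those over 90–100 kb (1.20 and 1.16). The untreated libraries had 1.29 and 1.28 at 25 min and 1.34 and 1.33 at 40 min across the same boundary, a smaller difference in the same direction.

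**Figure D4:**
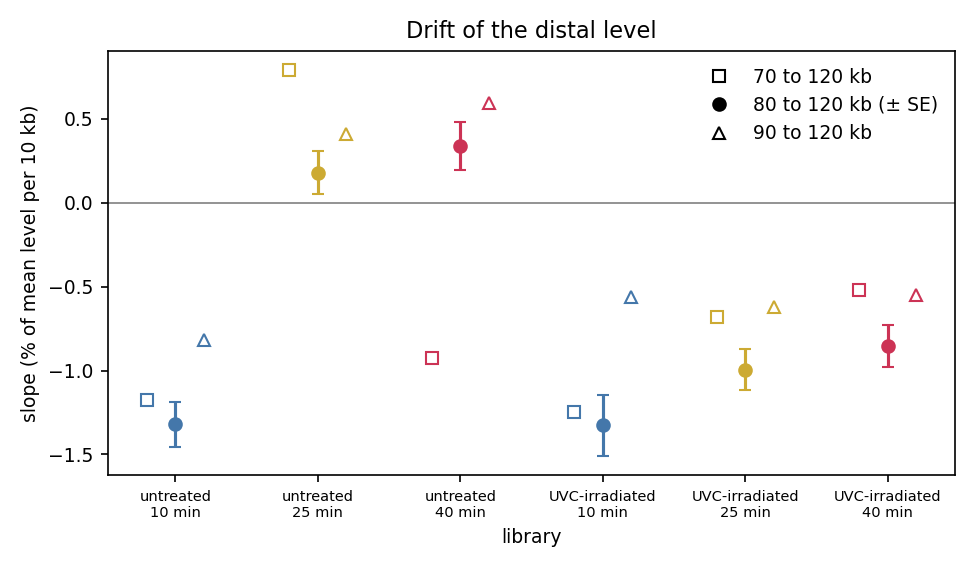
Slope of the distal level with distance (percent of the mean level per 10 kb, vertical axis) for each library (horizontal axis), from least squares over 1 kb bins; filled points with SE bars are for 80 to 120 kb, squares for 70 to 120 kb and triangles for 90 to 120 kb. The 10 min libraries and the irradiated libraries lie below 0 under each range, and the untreated 25 min library above 0.

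On top of level and drift, the libraries shared a fine structure. In 700 bins of 100 bp, each divided by its own 5 kb running mean, the deviations had an SD of 1.03% to 1.44% in a library. Across bins, the correlation between libraries had a median of 0.686 over the 15 pairs and ranged from 0.503 to 0.803. These are descriptions, since the libraries share positions and, as far as the files show, the averaged genes, and neighbouring bins are not independent. The highest correlation was between the 2 libraries of 10 min (0.803), and the next between the irradiated 25 and 40 min libraries (0.794). The 5 pairs with the untreated 40 min library had a median of 0.543, and the 10 pairs without it one of 0.725. Over 80–120 kb, beyond the edge, the untreated 40 min library correlated with the others by 0.483 to 0.601.

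In the untreated 40 min library the fine structure was also the shallowest in percent of the signal (SD 1.03%). In signal units this depended on the window. Over 50–60 kb its SD was 0.0208, above the 0.0150 to 0.0160 of the other 5 libraries. Over 110–120 kb it was 0.0132, below the 0.0158 to 0.0176 of the others. Within this library the SD was 0.0210 over 60–70 kb, but 0.0139 over 70–80 kb, the last window of the edge, and 0.0137 over 100–110 kb. The larger amplitude was thus limited to 50–70 kb, where the signal of this library was also highest. The part of these amplitudes in its lower correlations was not tested.

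All 6 libraries lay on the same side of their own running mean in 296 of 700 bins (42.3%). The 8 highest bins of the untreated 10 min library, at least 1 kb from one another, and its 4 lowest, spaced likewise, were read in the other 5 libraries. All 8 highest bins were above the running mean in each of the other 5 libraries, and all 4 lowest bins were below it in each. Among all 700 bins, 21.3% were above the running mean in those 5 libraries and 24.7% below.

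The highest bin, at 70.5 to 70.6 kb, was 4.27% above the running mean in the untreated 10 min library. The later untreated libraries had 3.20% and 0.843% there. The irradiated libraries had 3.13%, 3.51% and 4.75%. The bin was therefore above the running mean in every library and weakest in the untreated 40 min one, where it lay within the edge. There its deviation was below that library's own SD over bins (1.03%).

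The second highest bin, at 110.9 to 111.0 kb, was 3.69%, 2.44% and 1.21% above in the untreated libraries. The irradiated libraries had 3.40%, 3.43% and 2.76%. It too was weakest in the untreated 40 min library, here far beyond the edge. The bin at 65.7 to 65.8 kb was 3.25%, 3.43% and 2.20% above in untreated and 3.37%, 2.03% and 2.31% above in irradiated cells. The bin at 113.6 to 113.7 kb was 2.99%, 2.24% and 2.57% above in untreated and 1.86%, 2.65% and 3.11% above in irradiated cells. Neither of these was weakest in the untreated 40 min library. The remaining 4 peaks, at 61.7, 75.3, 82.6 and 94.9 kb, were between 0.631% and 2.95% above in the other 5 libraries.

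The deepest dip, at 82.1 to 82.2 kb, deviated by -5.39% from the running mean in the untreated 10 min library. It lay only 0.5 kb from the peak at 82.6 kb. The later untreated libraries deviated by -2.73% and -0.582% there, and the irradiated libraries by -3.64%, -2.98% and -2.59%. The dips at 63.6, 109.2 and 111.8 kb had deviations between -0.621% and -3.43% in the other 5 libraries.

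**Figure D5:**
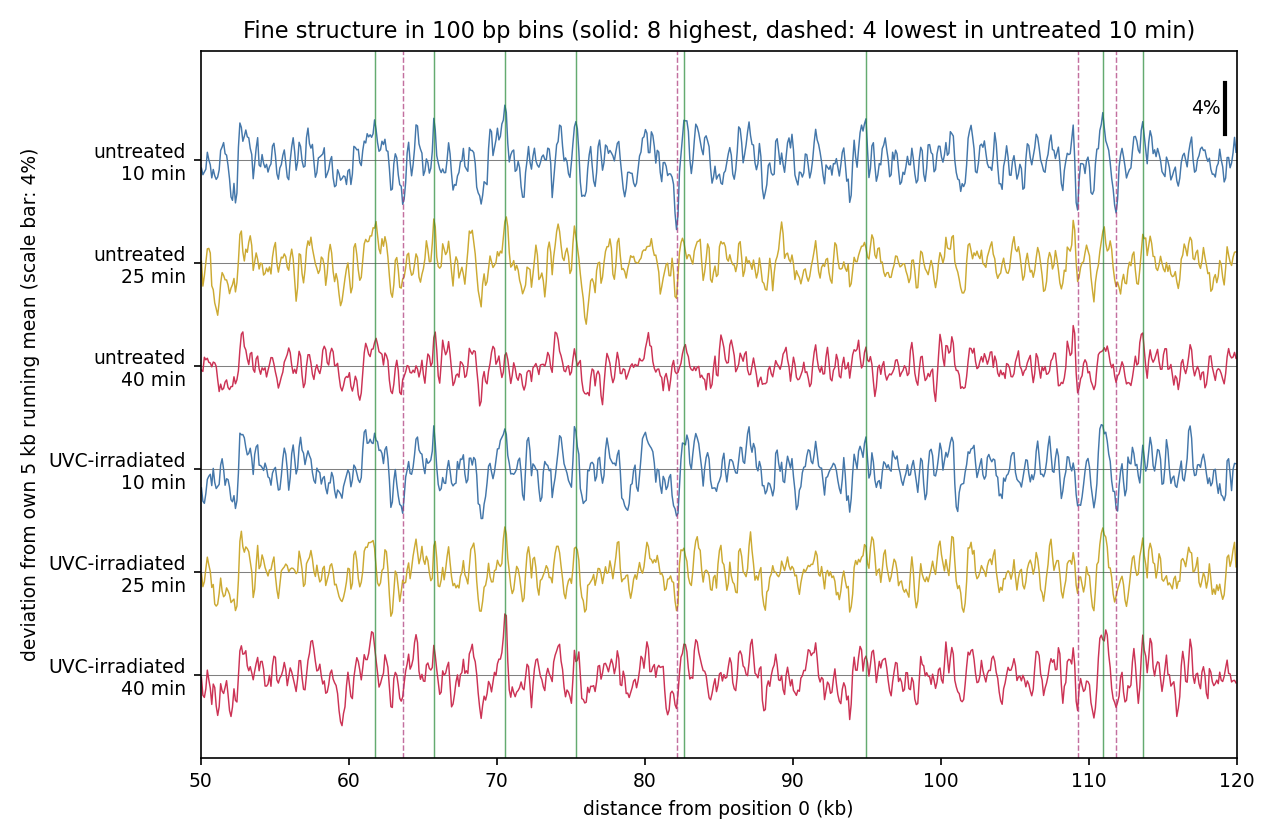
Deviation of the signal in 100 bp bins from each library's own 5 kb running mean (vertical axis, percent, scale bar 4%) against distance from position 0 (kb), with the libraries offset from one another. Solid lines mark the 8 highest and dashed lines the 4 lowest bins of the untreated 10 min library. Each of these bins lies on the same side of the running mean in the other 5 libraries, in some cases by less than that library's SD over bins.

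Shared structure was seen at the 1 kb scale too: with 1 kb bins and division by a 10 kb running mean, the median correlation of the pairs was 0.656. The extremes of the undivided profiles also coincided in part, but these follow level and drift as well as local structure. The bin over 51–52 kb was the lowest of the distal range in the untreated 25 min library and in the irradiated 25 and 40 min libraries. The bin over 109–110 kb was the lowest in both 10 min libraries. The bin over 61–62 kb was the highest in both 10 min libraries, and that over 64–65 kb in both later irradiated libraries. Around a 2 kb running mean, deviations 51 bp apart (1 read length) correlated by 0.822 to 0.851 within a library. At 100 bp apart they correlated by 0.587 to 0.660, at 200 bp by 0.117 to 0.245 and at 300 bp by -0.120 to -0.0208. Division by a 2 kb running mean takes out longer features, and reads of 51 bp can tie nearby positions. The extent of single features is therefore not settled by these values.

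Compared with the neighbouring gene body, the distal fine structure was shared to a like degree. Over 20–50 kb the 15 pairs had a median correlation of 0.652 (0.421 to 0.846), against 0.715 in the nearer (50–80 kb) and 0.616 in the farther (80–120 kb) distal positions. No test of these differences was made.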

How the data were processed

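GRO-seq libraries were strand-specific and sequenced as single ends of 51 bp after a run-on of 5 min, per the labels' protocols. BWA 0.5.9 and hg19 (GRCh37) are named in the submitters' processing notes. The deposited files give, per the file headers, a signal for each position from -2000 to 120000 bp, averaged by the authors over genes. The gene set, strand handling and scaling are not given in the sources used here. In each library 100.0% of values were whole multiples of 1 step (within 0.05 of a step; steps of 3.74e-05 to 6.05e-05). Depth in reads is unknown, so no counting interval or floor is given.

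Windows of 10 kb, bins of 1 kb and 100 bp, running means, least-squares slopes and correlations were computed with Python 3.11.15, numpy 2.4.6, pandas 2.3.3 and scipy 1.17.1, with no pseudocount, and tested on simulated data. Bins were counted where the irradiated signal was more than 20% lower or 25% higher than the untreated signal. Gene lengths came from GENCODE release 44 on GRCh37. Scaling, window summary, smoothing, floor, range and detrending were varied. The distances and measures were chosen with earlier results of these data known, and the rise at 25 min was added after its values were seen. No gene is named; fine-structure bins were the 8 highest and, apart from these, the 4 lowest of the untreated 10 min library, at least 1 kb from others of their kind.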

Additional observations from a re-analysis of the deposited data

Results flagged for a closer look

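In 3 distal windows the irradiated signal was above the untreated signal at one time and below it at another, each by more than the SD over 1 kb bins, in the units as deposited. The difference between times was not tested, because each value rests on 1 library per group. In the 50–60 kb window the log2 ratios were 0.014, 0.063 and -0.86 (10, 25 and 40 min). The 60–70 kb window had 0.014 (10 min) and -0.50 (40 min). The 70–80 kb window had 0.0063, -0.045 and -0.27 (10, 25 and 40 min). With division by the profile mean, of these 3 only the 50–60 kb window kept opposite signs (0.078, 0.43 and -0.25). With the 110–120 kb mean set equal, the 10 min values of the 60–70 kb window (0.0095) and the 70–80 kb window (0.0021) were below their SD over bins, 0.0103 and 0.0053. The 60–70 kb window still had opposite signs past its SD, at 0.12 ± 0.020 (25 min) and -0.27 ± 0.075 (40 min). So did the 50–60 kb window, at 0.19 ± 0.013 and -0.63 ± 0.12. In the 70–80 kb window only the 25 min value was past its SD (0.084 ± 0.016, against -0.042 ± 0.056 at 40 min).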

How the results depend on the processing

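Scaling between libraries decided the direction of most height comparisons, since dividing each profile by its own mean shifts all log2 ratios of a pair alike. With division by the profile mean, the log2 ratios of irradiated to untreated signal over 50–60 kb became 0.078, 0.43 and -0.25 (10, 25 and 40 min). Those over 110–120 kb became 0.068, 0.24 and 0.38. At 25 min the windows from 70 kb to 110 kb turned positive, at 0.32, 0.29, 0.27 and 0.24. At 40 min those from 60 kb to 110 kb turned positive, at 0.11, 0.33, 0.43, 0.41 and 0.39. With division by the 110–120 kb mean, which fixes that window at 0, the first window had 0.19 (25 min) and -0.63 (40 min). The windows from 70 kb to 110 kb at 25 min had 0.084, 0.047, 0.030 and 0.0017, and those from 80 kb to 110 kb at 40 min 0.053, 0.035 and 0.011.

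The log2 ratios to the 10 min library moved likewise. With the profile mean, the 7 untreated windows had -0.36, -0.26, -0.24, -0.19, -0.17, -0.13 and -0.13 (25 min) and 0.24, -0.065, -0.31, -0.39, -0.36, -0.31 and -0.32 (40 min). The irradiated windows had -0.0081 first and 0.039 last (25 min), and -0.086 first, -0.0095 over 90–100 kb and -0.0107 last (40 min). With the 110–120 kb mean, the untreated windows up to 100 kb had -0.23, -0.12, -0.11, -0.059 and -0.036 (25 min). At 40 min the untreated 50–60, 80–90 and 90–100 kb windows had 0.56, -0.069 and -0.043. The first 4 irradiated windows had -0.047, -0.011, -0.028 and -0.014 (25 min).

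The untreated 40 min half-height lay between 59.4 and 60.9 kb under the settings tried. Its 10% height moved to 71.8 kb with division by the irradiated 40 min profile and to 70.1 kb by the untreated 10 min one. The 25 min rise was less fixed: by the same divisions (irradiated 25 min, untreated 10 min) its half-height lay at 73.2 and 65.2 kb and its 10% height at 93.0 and 100.2 kb. A 10 kb running mean put the latter at 80.4 kb. These divisions and the rise were chosen after seeing the data.

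Drift over 90–120 kb was -0.819%, 0.409% and 0.592% per 10 kb in untreated and -0.563%, -0.621% and -0.550% in irradiated libraries. Over 70–120 kb it was -1.18%, 0.791% and -0.923% in untreated libraries, and -0.683% and -0.523% in irradiated ones (25 and 40 min). The 22 bins past the fold limit at 40 min were 12 at 1.5-fold, 13 with the 110–120 kb mean, and 3 lower and 45 higher with the profile mean, which gave 25 higher at 25 min. These alternative counts have no share over the whole profile beside them and are not read as a distal trait. The median correlation of fine structure stayed between 0.616 and 0.725. Levels relative to 110–120 kb kept within 1 SD over bins in all 72 alternatives. Pairs of libraries share a time, which is a condition and not a replicate, and no paired test was made. Nothing finer than the roughness of the bins, and nothing about variation between cultures, can be read from these profiles.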
